A study of Mus musculus with 2 samples.

Results

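Complement components and regulators were examined in the distal colon of IL-9 transgenic mice. Interleukin-9 (IL-9) is a cytokine made mainly by T cells and innate lymphoid cells, and it promotes mast cell growth. The genes were chosen by symbol, with earlier results of these data known: C2, C3, C4b, Cfb, Cfi, Serping1, Cd55 and Cd59a, 8 genes in all. Of these 6 are among the 12393 genes that have a probe set of their own on the array. One group was wild-type mice, of the strain that the sample labels call FVB and the series design text TVB. The other was IL-9 transgenic mice, titled Tg5. Each group was 1 array of RNA pooled from 4 mice, taken from a piece of the distal colon of animals bred specific pathogen free. The age and sex of the mice, the strain background of the transgenic line, and the promoter and cell type that drive the transgene are not given in the sources used here.

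Complement is a cascade of plasma proteins that marks microbes and damaged cells for uptake or lysis. The classical pathway starts with C1q, C1r and C1s, which cleave C4 and C2. The lectin pathway reaches the same point through mannose-binding lectins, ficolins and their proteases, and the alternative pathway amplifies C3 cleavage through factor B. Host cells are shielded by regulators such as C1 inhibitor (Serping1), factor I (Cfi), decay-accelerating factor (Cd55) and Cd59, and besides the liver, epithelial and stromal cells and macrophages of the gut make several of these proteins. Several complement genes, C4, C2, Cfb and Serping1 among them, are known to respond to interferon-γ.

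A probe set is a group of short probes designed to read a transcript, although some can bind transcripts of several genes, and its intensity is a linear value made with MAS5. A gene is called measured where an array exceeds a floor of 19.8, set at the 40th percentile of the probe sets of both arrays, and differences are log2 ratios of transgenic over wild type. The arrays had median intensities of 34.0 (wild type) and 34.2 (transgenic), so no scaling was added. With 1 array per group there is no replicate, no error from replicates and no test, and each difference compares 2 pools. As a technical yardstick only, probe sets of the same gene differed in log2 ratio with a pooled SD of 0.28 over 2847 genes. In a tissue piece, more cells of a type and more RNA per cell cannot be told apart.

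Among the measured probe sets of these genes, the pools differed by more than 2-fold in 1, shared by C4a and C4b, which was higher in transgenic colon. The 4 genes that were measured by probe sets of their own (Cfb, Serping1, Cd55 and Cd59a) had nearly the same intensity in both pools. C2 and Cfi exceeded the floor on neither array, and no probe set is assigned to C3 in the annotation used here, so C3 was not analysed. The 8 genes thus had 10 probe sets, 8 with a single symbol and 2 with several, and 6 of those 8 exceeded the floor. Of the 4 measured genes, 0 passed 2-fold in either direction. Among all 8346 measured genes, 0.767% passed it upwards and 0.611% downwards. The median log2 ratio of the 4 genes was −0.036, beside 0.04 over all measured genes.

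**Figure D1:**
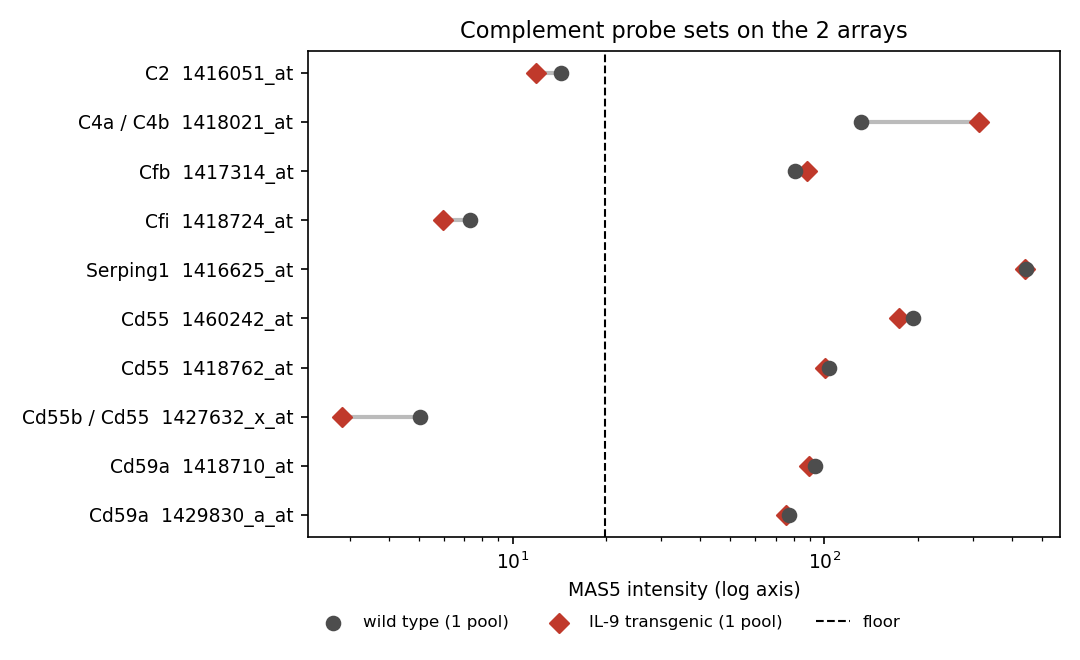
MAS5 intensity (log axis) of each complement probe set in the wild-type pool (circles) and the IL-9 transgenic pool (diamonds), with the floor of 19.8 as a dashed line. The C4a and C4b probe set runs from 131 to 313, while the pairs of points for Cfb, Serping1, Cd55 and Cd59a nearly coincide and those for C2 and Cfi lie below the floor.

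C4, cleaved by C1s, provides the C4b fragment of the classical and lectin C3 convertase. The probe set 1418021_at gave 131 in the wild-type and 313 in the transgenic pool, which is 2.38-fold higher, a log2 ratio of 1.25. The annotation assigns it to both C4a and C4b, paralogs that lie close together, so the reading cannot be given to one of them. RefSeq (GRCm38.p6, used for names and gene order) lists C4b as protein coding and C4a as a transcribed pseudogene in its reference strain. When every probe set above the floor is counted, those with several symbols included, 0.792% of 14149 passed 2-fold upwards and 0.763% downwards. A ratio at or above that of the C4 probe set was reached by 56 of them. Among the 4248 probe sets within 2-fold of it in mean intensity, the middle 95% spanned log2 ratios of −0.58 to 0.56, and 20 probe sets, itself included, were as high. When this probe set was counted for C4b, an alternative chosen after seeing the data, 1 of 5 measured genes was at least 2-fold higher.

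**Figure D2:**
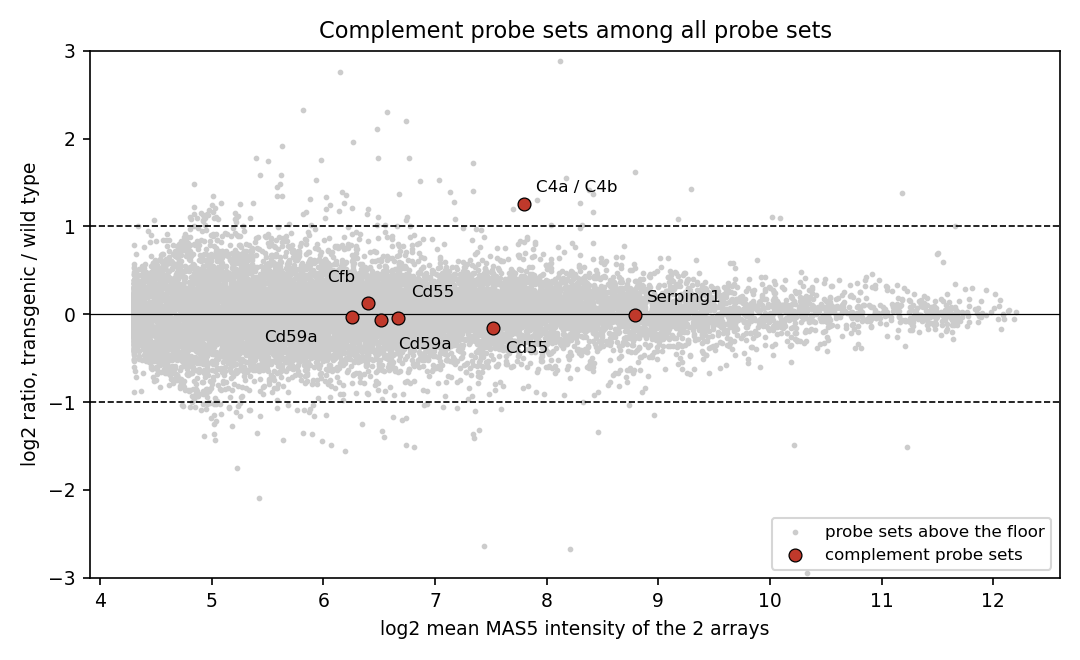
Log2 ratio of transgenic over wild type against log2 mean intensity for all probe sets above the floor on at least 1 array (grey) and the complement probe sets (red, labelled), with dashed lines at 2-fold. Only the C4a and C4b probe set lies outside the dashed lines among the red points. A further 43 probe sets lie beyond the vertical axis limits.

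C2, the serine protease that joins C4b in the convertase, was read by 1416051_at at 14.3 in the wild-type and 11.8 in the transgenic pool. Both values lay below the floor, so no ratio is given. Cfb, the alternative pathway counterpart of C2, was read by 1417314_at at 80.9 in the wild-type and 88.3 in the transgenic pool. That is a log2 ratio of 0.13, or 1.09-fold higher. Between probe sets within 2-fold of Cfb in mean intensity, the middle 95% ran from −0.64 to 0.71, and 35.8% had a ratio at least as high. The C4 and Cfb probe sets thus gave readings 2.38-fold and 1.09-fold higher; the difference between them was not tested.

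C4b, C4a, Cfb and C2 lie in this order in the MHC class III region of mouse chromosome 17, with 1 protein-coding gene (Cyp21a1) between C4b and C4a, 4 genes between C4a and Cfb and 0 between Cfb and C2. Apart from the complement genes, 26 genes of the listed neighbourhood had a probe set of their own and 22 were measured. Of these 0 were at least 2-fold higher or lower, 13 had positive and 9 negative log2 ratios, and the median was 0.07. The genes beside C4a and C4b were Stk19, at 50.8 in the wild-type and 67.0 in the transgenic pool (log2 ratio 0.40), and the matrix protein gene Tnxb, at 151 and 137 (−0.14). Cyp21a1, a steroid hydroxylase gene, was at 20.6 in wild type and below the floor at 9.59 in transgenic colon. Other large ratios were those of Dxo, an RNA decapping enzyme gene (−0.32), and Fkbpl, at the floor in wild type and at least 1.27-fold higher. The histone methyltransferase gene Ehmt2 had 0.30.

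**Figure D3:**
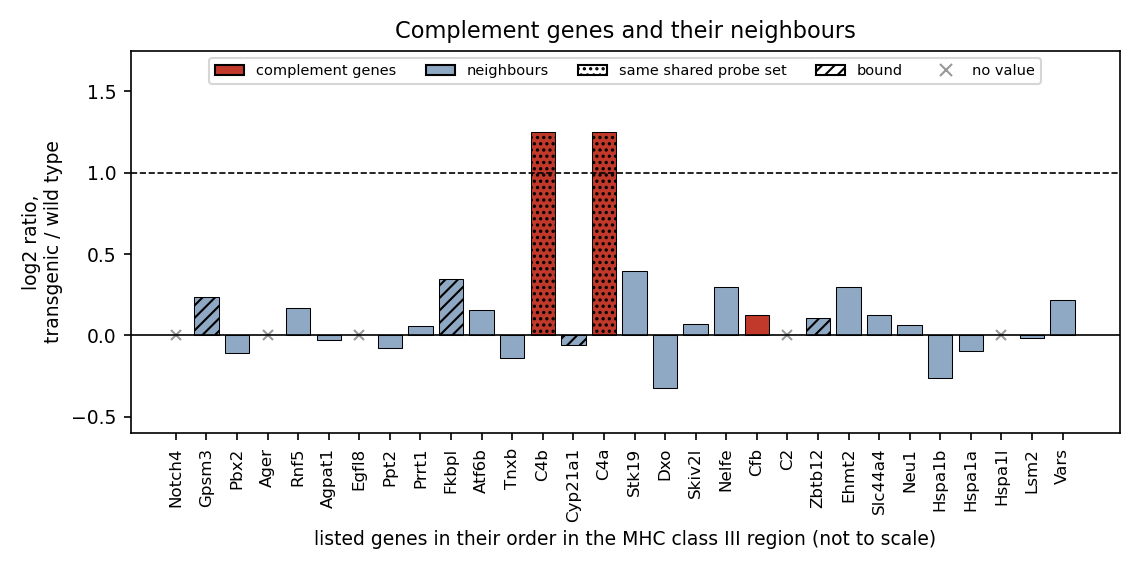
Log2 ratio of transgenic over wild type for listed genes in their order in the MHC class III region, with complement genes in red, neighbours in blue, hatched bars for bounds and crosses where both arrays were below the floor. The 2 tall bars are 1 reading, that of the probe set shared by C4b and C4a, and every other bar lies between −0.32 and 0.40.

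Of the chosen fluid-phase regulators, Serping1 was measured and Cfi was not. Serping1, which encodes C1 inhibitor, the serpin that inactivates C1r and C1s, was read by 1416625_at at 443 in the wild-type and 442 in the transgenic pool. Its log2 ratio was −0.0042. For probe sets of like intensity the middle 95% ran from −0.56 to 0.54. Cfi, the protease that degrades C3b and C4b, was below the floor in both pools, at 7.28 and 5.99 (1418724_at).

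The membrane regulators Cd55 and Cd59a were read by a pair of single-symbol probe sets each, and all of these had small negative log2 ratios. Cd55, which speeds the decay of C3 convertases on the cell surface, was read by 1460242_at at 193 in the wild-type and 174 in the transgenic pool, a log2 ratio of −0.15. Its other probe set, 1418762_at, gave 103 and 101, a log2 ratio of −0.04. Another, 1427632_x_at, is assigned to both Cd55 and its paralog Cd55b and was below the floor at 5.05 and 2.84. Cd59a, which blocks assembly of the membrane attack complex, was read by 1418710_at at 93.7 and 89.4 (log2 ratio −0.07) and by 1429830_a_at at 76.9 and 75.4 (−0.03). The 4 ratios were each smaller in size than the technical yardstick of 0.28. Of all measured genes, 43.3% had a ratio smaller in size than the −0.15 of Cd55, the largest in size among the 4 measured genes.

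Upstream sequences are shown for the 2 surface regulators, since both were measured and their pairs of probe sets gave like ratios. The RefSeq promoter table held 3 of the 8 genes (these and C3). The windows hold the 250 bases before the gene's start on the gene's strand (RefSeq, GRCm38.p6), at chr1:130462745-130462994 (minus strand) for Cd55 and chr2:104095551-104095800 (plus strand) for Cd59a. Capitals mark a match to a searched motif.
Cd55: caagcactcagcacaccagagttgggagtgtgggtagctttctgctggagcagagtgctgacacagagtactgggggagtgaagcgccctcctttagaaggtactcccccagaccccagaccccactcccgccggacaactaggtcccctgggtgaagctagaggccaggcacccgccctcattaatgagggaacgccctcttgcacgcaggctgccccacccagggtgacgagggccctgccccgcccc
Cd59a: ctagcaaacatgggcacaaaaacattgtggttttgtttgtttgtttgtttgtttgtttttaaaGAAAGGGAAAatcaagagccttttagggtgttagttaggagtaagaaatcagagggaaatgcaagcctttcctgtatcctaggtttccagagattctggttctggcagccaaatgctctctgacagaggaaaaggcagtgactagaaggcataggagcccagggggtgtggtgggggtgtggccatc

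The motifs searched on both strands were TTCNNNGAA, which STAT proteins bind, the core of the interferon-stimulated response element (GAAA, any 2 bases, GAAA), and a form of the NF-κB site (GGG, any 2 bases, TTTCC). A match on both strands at the same position was counted once. The Cd59a window holds 1 match to the interferon element, GAAAGGGAAA, which begins 187 bases before the start, and the Cd55 window holds 0 matches to any of the 3 motifs. In windows of the same length from all 32851 promoters in the table, 7.02% hold the STAT motif, 2.98% the interferon element and 1.41% the NF-κB form. The window of Cd59a is 44.8% G and C and that of Cd55 64%. A match is a description of letters and not a site.

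The rest of the complement system was read from 7 lists by role. Of the 38 other complement genes with a probe set of their own, 20 were measured and 18 were below the floor on both arrays. Of the 20, 1 passed 2-fold upwards and 0 downwards, beside 0.767% and 0.611% of all 8346 measured genes. The log2 ratio was positive in 13 and negative in 7, with a median of 0.23. Over all measured genes 56.0% were positive. Both the median and the count depend on the floor. With the 20th percentile as floor 33 genes were measured, 3 were at least 2-fold lower and the median was −0.04. Without a floor 5 of 38 were lower and the median was 0.0063. Over all genes, 258 of 10809 were lower at the 20th percentile and 611 of 12393 without a floor.

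Genes of the C1 complex all had small positive ratios. C1qa, C1qb and C1qc encode the chains of C1q, the recognition protein of the classical pathway, which macrophages are known to make. C1qa was at 167 in the wild-type and 215 in the transgenic pool, a log2 ratio of 0.37. C1qb was at 120 and 162 (0.42) and C1qc at 120 and 162 (0.44). The other probe sets of C1qb had log2 ratios of 0.34 and −0.32, so its readings went both ways, and its mean over the 3 was 0.15. The protease genes C1ra, at 91.5 and 111, and C1s1, at 201 and 236, had log2 ratios of 0.27 and 0.23. All 5 ratios lay within the middle 95% of probe sets of like intensity. Among such probe sets, 6.20% had a ratio as high as that of C1qc, 6.92% as high as C1qb and 9.17% as high as C1qa.

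In the lectin pathway 3 of 6 genes were measured and 0 reached 2-fold. The ficolin gene Fcna was at 57.5 in the wild-type and 67.1 in the transgenic pool, a log2 ratio of 0.22. The protease gene Masp1, at 22.0 and 17.4, and the collectin gene Colec12, at 25.6 and 13.6, were at the floor in transgenic colon, which bounds them at 1.11-fold or more and 1.29-fold or more lower. Mbl1, Mbl2 and Masp2 were below the floor in both pools. In the alternative pathway Cfp, which encodes the convertase stabiliser properdin, was at 21.7 and 29.4, a log2 ratio of 0.44. The terminal pathway genes, whose products form the membrane attack complex, were below the floor in both pools for all 6 with a probe set (Hc, C6, C8a, C8b, C8g and C9).

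**Figure D4:**
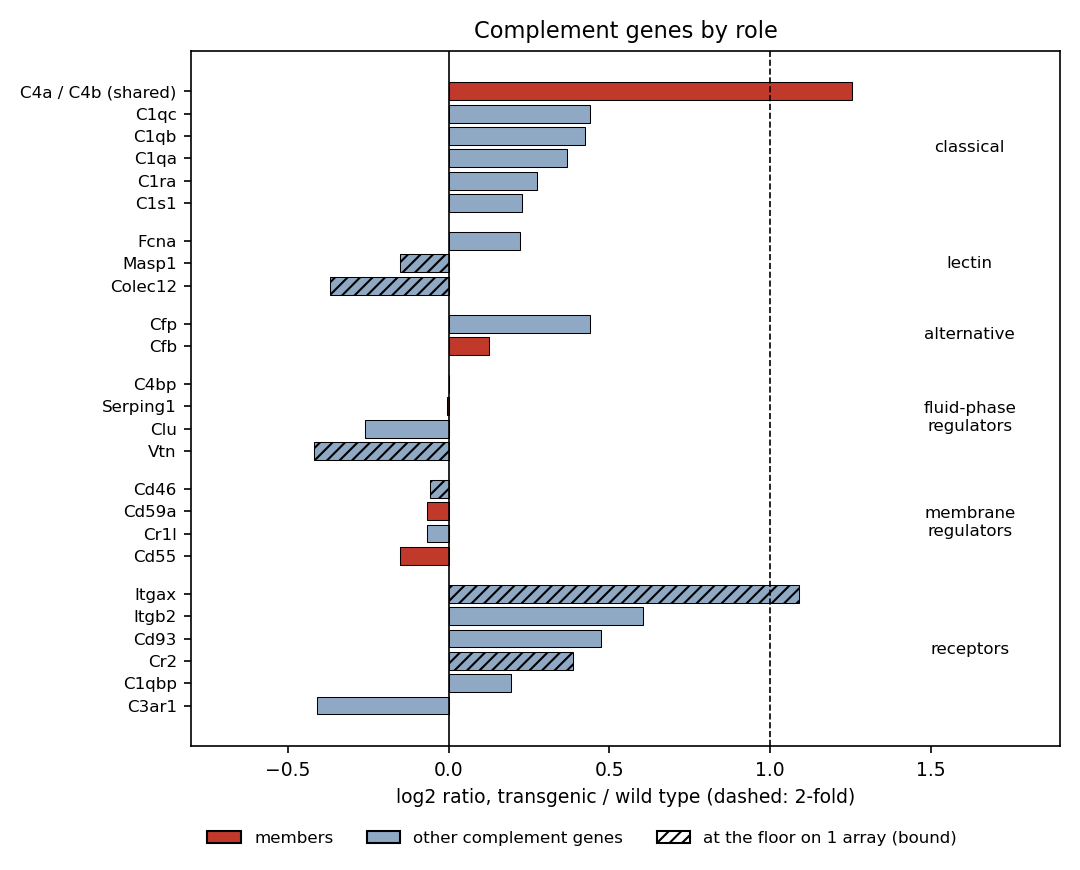
Log2 ratio of transgenic over wild type for measured complement genes, grouped by role, with the chosen genes in red, other complement genes in blue, hatching for bounds and dashed lines at 2-fold. The C4a and C4b probe set and the receptor gene Itgax pass 2-fold, the C1 genes lie between 0.23 and 0.44, and all membrane regulators lie between −0.15 and −0.06.

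The measured regulators beyond the 8 genes had ratios near 0 or below it. Cr1l, the mouse membrane regulator also called Crry, was at 396 in the wild-type and 378 in the transgenic pool, a log2 ratio of −0.07. Cd46, a cofactor for factor I, was at 20.6 in wild type and just below the floor at 19.6 in transgenic colon, at least 1.04-fold lower. C4bp, the fluid-phase binding protein of C4b, was at 34.4 in both pools. Clusterin (Clu), which holds back the terminal complex, was at 610 and 509 (−0.26), and its 3 other probe sets had −0.38, −0.24 and 0.04. Vitronectin (Vtn), another inhibitor of the terminal complex, was at 26.5 in wild type and below the floor at 7.06 in transgenic colon, at least 1.34-fold lower.

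Among the receptors, 6 of 9 genes were measured and 1 reached 2-fold. Itgax, the α chain of complement receptor 4 (CD11c), was below the floor at 14.2 in wild type and reached 42.1 in transgenic colon, at least 2.13-fold higher. With the 60th percentile as floor Itgax was not measured on either array, and 0 of the other complement genes reached 2-fold. Itgb2, the β chain it shares with complement receptor 3, was at 46.7 and 71.0, a log2 ratio of 0.61. Cr2, the complement receptor of B cells and follicular dendritic cells, was below the floor at 17.0 in wild type and at 25.9 in transgenic colon, at least 1.31-fold higher. Cd93 had a log2 ratio of 0.47 and C1qbp one of 0.19. C3ar1, the receptor of the C3a fragment, was at 29.3 and 22.1 (−0.41). The other probe sets of C3ar1 (17.8 and 17.3) and Cd93 (13.2 and 10.1) were below the floor in both pools. That of C1qbp had a log2 ratio of 0.10. The remaining 3 (C5ar1, Vsig4 and Itgam) were below the floor in both pools.

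Other lists were set beside the complement readings. Of 20 measured interferon-response genes, 8 were at least 2-fold higher and 0 lower. Their median was 0.63 and their log2 ratios ran from −0.03 to 1.55. Gbp2, Gbp3 and Ifi47, genes of interferon-inducible GTPases, had 1.55, 1.49 and 1.31, and the immunoproteasome subunit gene Psmb9 1.28. The other 7 of the 27 on the array, including Cxcl9, Cxcl10 and Ciita, were below the floor in both pools. Cfb (0.13) and Serping1 (−0.0042) lay below the median of the measured interferon-response genes and the C4 probe set (1.25) above it. C2 was below the floor in both pools and had no ratio to compare. Of 6 measured acute phase genes 1 was at least 2-fold higher, the serpin gene Serpina3n, at 211 in the wild-type and 427 in the transgenic pool (log2 ratio 1.02). The serum amyloid gene Saa2 had −0.10, Lcn2 was at least 1.30-fold higher and the lipopolysaccharide-binding protein gene Lbp had 0.35. Another 14 of these 20, including Hp, Crp and Il6, were below the floor in both pools.

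Markers of cell types were read in the same 2 pools. Of 7 measured B cell markers 5 were at least 2-fold higher and 0 lower, and the summed intensity of the 10 on the array was 278 in the wild-type and 1039.6 in the transgenic pool, with Pax5, Blk and Fcer2a below the floor in both. Ighm, Cd79a, Cd22 and Pou2af1 had log2 ratios of 3.19, 1.92, 1.44 and 1.14. Ighm alone gave 62.6 and 570 of these sums. Its other measured probe sets were all positive but ran from 0.23, 0.60 and 0.90 up to 4.29 (a bound). The size of its difference thus depends on the probe set. The other probe set of Cd22 had 0.06, also a bound. The list also holds Cr2, and its part in the higher reading of Cr2 was not tested. Of 13 measured macrophage markers 1 was at least 2-fold higher, Itgax itself. Their median was 0.07 and the summed intensity of the 14 on the array was 2959 and 3164, with Fcgr1 below the floor in both. Mpeg1 and Cd68 had 0.47 and 0.39, and Adgre1, which encodes the macrophage marker F4/80, −0.43; the part of macrophages in the C1q readings was not tested.

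Of 8 measured endothelial markers 2 were at least 2-fold higher, Plvap and Vwf (1.01 each), with Eng at 0.51 and Pecam1 at 0.50, a median of 0.40 and a summed intensity over 9 genes of 386 and 537. Cdh5 was below the floor in both pools. Of 8 measured mast cell markers 5 were at least 2-fold higher, among them Mcpt2 and Mcpt1, at the floor in wild type and at least 74.3-fold and 65.5-fold higher, and Fcer1a and Cpa3, with 2.76 (a bound) and 2.31. Their summed intensity over 10 genes was 231 and 3363, with Ms4a2 and Hdc below the floor in both. The part of either cell type in the C4 reading was not tested.

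The lists of fibroblasts (10 measured), epithelium (9) and smooth muscle (7) held 0 genes at 2-fold, with medians of −0.0011, −0.02 and 0.06 and summed intensities of 5800 and 5710, 16420 and 15910, and 8549 and 8360. Their largest ratios were those of Lum (−0.49), Cdh1 (−0.46) and Smtn (0.21). Epcam, at 2257 and 2317, and Myh11, at 1341 and 1265, mark the epithelium and muscle of a colon wall in both pools.

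Liver is the main source of plasma complement. Its albumin gene Alb was below the floor at 16.4 and 17.0, and 4 of 9 hepatocyte genes were measured, with 0 at 2-fold and a summed intensity of 412 and 331. Ttr had −0.50, Cps1 −0.32, Tat 0.26 and Apob, at the floor in wild type, was at least 1.21-fold higher. The 11 measured genes of pancreatic acinar cells all had a transgenic intensity at least 2-fold lower, with a summed intensity of 29323 in the wild-type and 1672 in the transgenic pool. The enzyme genes Cela3b, Cela2a, Ctrb1 and Prss2 were each at the floor in transgenic colon, and the part of such tissue in the complement readings was not tested.

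**Figure D5:**
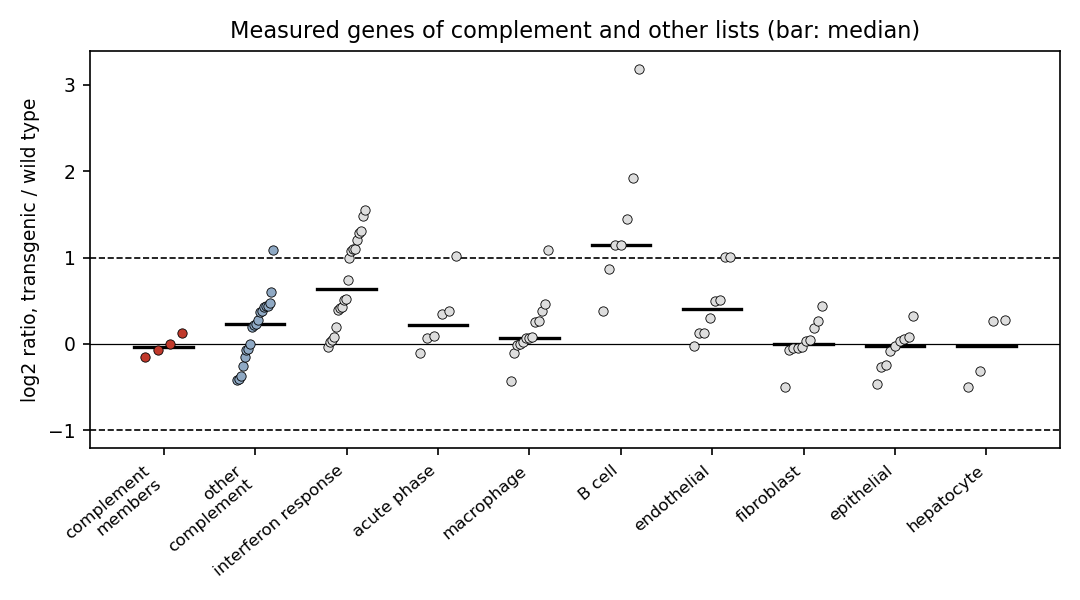
Log2 ratio of transgenic over wild type for the measured genes of complement and of other lists, 1 point per gene, with a bar at each list's median and dashed lines at 2-fold. The 4 measured complement genes lie between −0.15 and 0.13 around a median of −0.036, beside medians of 0.23 for other complement genes, 0.63 for interferon-response genes and 1.14 for B cell markers. The probe set shared by C4a and C4b (log2 ratio 1.25) is not drawn.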

How the data were processed

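The deposited table holds 1 linear intensity per probe set and array, made by the authors with MAS5, per the submitters' processing notes; its version is not stated there. RNA of 4 mice was pooled per group, per the series design text. Of 22690 probe sets, 64 controls were left out. The platform annotation gave 1 symbol to 20380 of the others, several to 691 and none to 1555; 20351 matched a RefSeq gene and 0 symbols changed. The brightest single-symbol probe set stood for its gene. Intensities under the floor of 19.8 were raised to it before log2 ratios (transgenic over wild type) were computed, so where 1 array is at the floor the fold is a lower limit, printed as "at least". MAS5 makes ratios of low values unstable. Detection calls were not used here. The number of arrays limits the precision.

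A gene counted as higher or lower at 2-fold. The text names the chosen genes, the measured genes of the 7 complement lists and up to 4 genes with the largest ratios in each other list; colon and liver markers named for identity (Epcam, Myh11, Alb), the C4 neighbours Tnxb and Cyp21a1, and genes below the floor fall outside this rule and were chosen after their values were seen. The genes and lists were chosen with earlier results of these data known. The procedure was tested on simulated data (Python 3.11.15, pandas 2.3.3). The planted differences lay in genes well above the floor, so readings near the floor were not tested. Alternatives were median scaling, quantile normalization, loess (span 0.3), the 20th and 60th percentiles as floors, a pseudocount of 1.76 without a floor, means over probe sets, and leaving out probe sets that can bind several transcripts.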

Additional observations from a re-analysis of the deposited data

How the results depend on the processing

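The log2 ratio of the C4a and C4b probe set ran from 1.22 to 1.25 over all settings. Only median scaling, quantile normalization, loess and the pseudocount could alter it. The log2 ratios of Cfb ran from 0.10 to 0.13, of Cd55 from −0.19 to −0.10, of Cd59a from −0.09 to −0.05 and of Serping1 from −0.03 to 0.0081. Counting the shared probe set for C4b gave 1 of 5 measured genes at least 2-fold higher in place of 0. Over all genes 65 of 8347 were higher in that setting. With a floor at the 20th percentile C2 and Cfi had ratios of −0.27 and −0.28, and without a floor −0.24 and −0.22. Of the other complement genes, 0 were higher with a floor at the 60th percentile, 3 lower at the 20th (Vtn at −1.91, and Mbl2 and Vsig4 as bounds) and 5 lower without a floor, and their median was −0.04 at the 20th. Over all genes 202 of 10809 were higher and 258 lower at the 20th percentile. At the 60th percentile 29 and 27 of 5975 were, and without a floor 496 and 611 of 12393. Of 200 single-gene ratios recomputed, 6 moved by over 0.28, all of Colec12, Itgax or Vtn. Many could not move, since a change of floor alters no gene above it on both arrays. Counting the shared probe set for C4b alters no other gene, and genes not measured in a setting were left out. Itgax, the only one past 2-fold, stayed positive where it was measured. Near 0 the sign changed, for Serping1 with quantile normalization (0.0081). It also changed for C4bp with median scaling (−0.0088), quantile normalization (−0.0094) and loess (−0.00043). No paired analysis was possible because each group holds 1 array. With 1 array per group the spread between mice is unknown.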
